A study of Mus musculus with 12 samples.

Results

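The 6 actin genes of the mouse were described in quadriceps muscle of 7-day-old C57Bl/6 pups, on 12 Affymetrix Mouse Gene ST arrays that each carried the RNA of 1 animal. The 6 arrays labelled KO come from mice annotated as cofilin-2 null, and the 6 arrays labelled WT from littermates annotated as wildtype. Neither group received a treatment that the labels mention, the mice were not pooled, and how the line was made is not given in the sources used here. Members were chosen by gene name, and each was represented by the probe set with the highest mean among those that the platform annotation pairs with exactly 1 symbol. Of the 6 genes, 5 (Acta1, Actc1, Acta2, Actg2 and Actb) had such a probe set, against 19938 genes in the whole table. Actg1 had none, and it was covered only by 4 probe sets that the annotation pairs with both Actg1 and Actb.

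Cfl2, the gene that was knocked out, opposed the labels on all 12 arrays, with log2 levels of 12.31 to 12.43 on the arrays labelled KO and 4.92 to 7.71 on the arrays labelled WT. No array was moved, and every difference here runs labelled KO minus labelled WT as deposited, a direction opposite to that of the genotypes if Cfl2 is the guide. The paper reports Ucp1 and Lep as lower and Myh3 as higher in knockout muscle. Here Ucp1 and Lep were higher on the arrays labelled KO, by 2.75 ± 0.60 and 2.12 ± 0.36 (SE). Myh3 was lower on them, at -1.41 ± 0.14 (SE). Each of these runs opposite to the direction in the paper. The creatine kinase gene Ckm averaged 13.37 ± 0.03 on the arrays labelled KO and 13.39 ± 0.04 on the arrays labelled WT (SD, n = 6 each), and 7 of the 8 skeletal muscle markers did not pass the test described below, which 31.9% of all probe sets passed. The exception was Des, the muscle intermediate filament gene, at -0.25, and with each array centred on its median Myog, a myogenic transcription factor, passed as well (0.22, limma adjusted p = 0.0264). In bulk muscle, fewer cells of a type and less RNA per cell cannot be told apart.

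Actins are small proteins that bind ATP and assemble into filaments, which cofilins sever and take apart. Mammals make sarcomeric actins for the thin filaments of striated muscle (Acta1 for the adult skeletal and Actc1 for the cardiac form, which fetal skeletal muscle also makes before Acta1 takes over), smooth muscle actins (Acta2 in vessels, Actg2 in gut) and cytoplasmic actins that every cell uses (Actb and Actg1). The proteins differ at few positions, and transcription of their genes depends in part on the serum response factor SRF, which binds a short element called the CArG box. Its cofactors of the MRTF family are held back by unpolymerised actin, so that the state of the filaments feeds back on the genes.

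Promoter sequences are shown for the 4 actin genes with an entry in the RefSeq table used (Acta1, Actc1, Acta2 and Actg1, build GRCm38.p6), because the members share this regulatory input. Each run starts 140 bases before the annotated start of the gene and ends 20 bases after it, 5′ to 3′. Capitals mark every stretch that is a CArG box or departs from one by a single letter.
Acta1: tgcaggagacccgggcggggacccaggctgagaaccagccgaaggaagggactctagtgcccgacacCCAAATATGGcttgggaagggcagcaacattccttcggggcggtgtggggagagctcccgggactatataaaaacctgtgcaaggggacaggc
Actc1: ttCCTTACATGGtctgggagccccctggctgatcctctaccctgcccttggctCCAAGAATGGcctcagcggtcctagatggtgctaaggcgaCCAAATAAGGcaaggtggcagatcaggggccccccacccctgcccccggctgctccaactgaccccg
Acta2: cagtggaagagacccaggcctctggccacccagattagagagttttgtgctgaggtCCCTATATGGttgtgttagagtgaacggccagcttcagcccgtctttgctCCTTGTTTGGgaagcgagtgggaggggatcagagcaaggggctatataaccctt
Actg1: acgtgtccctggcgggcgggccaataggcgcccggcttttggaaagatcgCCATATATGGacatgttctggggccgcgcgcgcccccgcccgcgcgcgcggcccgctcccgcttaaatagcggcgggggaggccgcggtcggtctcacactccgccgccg

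All 4 runs lie on the minus strand, at chr8:123894756-123894915 for Acta1, chr2:114052856-114053015 for Actc1, chr19:34255354-34255513 for Acta2 and chr11:120348476-120348635 for Actg1. A complete CArG box was present in 3 of the 4 windows of 300 bases. It began 73 bases before the start in Acta1 (CCAAATATGG), 47 bases before it in Actc1 (CCAAATAAGG) and 90 bases before it in Actg1 (CCATATATGG). The Acta2 window held only stretches 1 letter off, at 84 and 34 bases before the start (CCCTATATGG and CCTTGTTTGG). Both strands are covered by 1 search, since the CArG box reads alike on both. It was found in 1.63% of 32851 promoter windows of the same length, and a stretch at most 1 letter off in 21.1%. The letters TATAAA began 7 bases before the annotated start in Acta1 and 33 bases after it, outside the printed run, in Actc1, against 13.6% of all windows on either strand, and these letters were not in the windows of Acta2 and Actg1. Such matches describe the sequence and were not tested as sites. Actb and Actg2 were not in the table.

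Of the actin genes, Actb was higher on the arrays labelled KO by 0.25 on the log2 scale, and the 4 probe sets shared with Actg1 were higher by 0.20 to 0.28. The sarcomeric genes Acta1 and Actc1 had differences of -0.08 and -0.16 that missed the threshold, and the smooth muscle genes Acta2 and Actg2 had differences of 0.14 and -0.01 that missed it too. The test was limma's across the 21789 probe sets with 1 symbol, with Benjamini-Hochberg adjustment and a threshold of 0.05. Of the 5 actin genes it called 1, Actb, where 31.9% of all probe sets were called (19.5% higher and 12.4% lower in labelled KO). That share varied with the level. Without dim probe sets a larger share was called, 5456 of 10895, and Actc1 passed beside Actb (limma adjusted p = 0.0399). Of the 37 probe sets with a mean level of 13 or more, 10 passed in the main fit. When each array was centred on its median, higher calls were 77.8% of all calls in place of 61.1%. The groups did not overlap for 2 of the 5 genes, Acta1 and Actb, where 15.4% of all probe sets did not overlap. Levels of different probe sets are not comparable with each other, and the plot of levels by array therefore gives each gene an axis of its own.

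**Figure D1:**
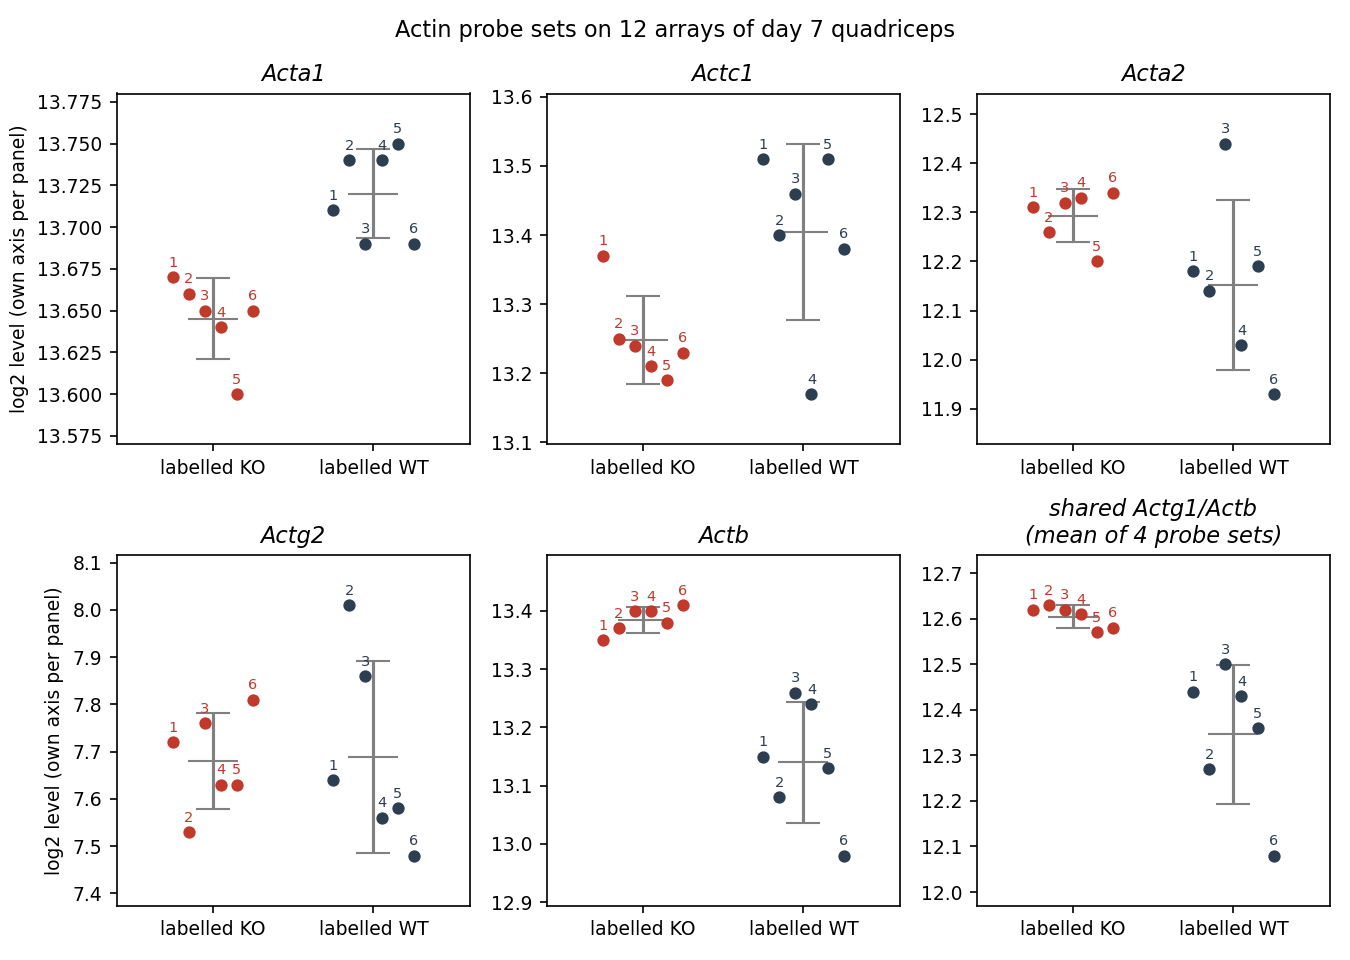
Log2 level (vertical axis, own range per panel) of 5 actin genes and of the mean of the 4 probe sets shared by Actg1 and Actb on each array, with labelled KO left of labelled WT; each point is an array with its replicate number, and grey bars show group mean ± SD (n = 6). The groups do not overlap for Acta1, Actb and the shared mean, and the array labelled WT4 is lowest for Actc1 at 13.17.

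Actb encodes beta-actin, the main cytoplasmic actin of most cells. Its log2 levels were 13.35, 13.37, 13.40, 13.40, 13.38 and 13.41 on the arrays labelled KO1 to KO6, against 13.15, 13.08, 13.26, 13.24, 13.13 and 12.98 on the arrays labelled WT1 to WT6. All 6 arrays labelled KO lay above all 6 labelled WT, with the array labelled WT6 lowest. The difference was 0.245 ± 0.047 (SE), a fold of 1.19 with a 95% interval of 1.10 to 1.27 (limma adjusted p = 0.00142). The two-sided exact permutation p was 0.00216, the smallest that 6 against 6 arrays can give. The arrays labelled KO were also closer together, with an SD of 0.023 against 0.104 on the arrays labelled WT. This was not particular to Actb. Tmsb4x (0.06 against 0.23) and Tpm4 (0.08 against 0.28) had it too, while Myh3 had the reverse (0.36 against 0.14).

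The annotation pairs the 4 shared probe sets with both Actg1 (gamma-actin, the other cytoplasmic form) and Actb. They were given from the fit to all 35556 rows of the table, where 23.8% of rows were called. All 4 were called. Averaged over the 4, the levels were 12.62, 12.63, 12.62, 12.61, 12.57 and 12.58 on the arrays labelled KO1 to KO6, against 12.44, 12.27, 12.50, 12.43, 12.36 and 12.08 on the arrays labelled WT1 to WT6. No array labelled WT reached the lowest labelled KO, and the array labelled WT6 again lay lowest. Probe sets 10393754, 10406417 and 10506424 differed by 0.273 ± 0.062, 0.280 ± 0.071 and 0.275 ± 0.061 (SE, limma adjusted p = 0.00687, 0.0127 and 0.00596). The fourth, 10571653, differed by 0.195 ± 0.058 (SE, limma adjusted p = 0.0266), and leaving out KO2 or KO4 ended its call (0.188 and 0.194, adjusted p = 0.0527 and 0.0504). On a single array the 4 differed by 0.01 to 0.18, so that they are close to repeats of 1 measurement and do not count as 4 observations. How much of their signal comes from Actg1 was not tested.

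Acta1 encodes the actin of adult skeletal muscle thin filaments. Its log2 levels were 13.67, 13.66, 13.65, 13.64, 13.60 and 13.65 on the arrays labelled KO1 to KO6, against 13.71, 13.74, 13.69, 13.74, 13.75 and 13.69 on the arrays labelled WT1 to WT6. Every array labelled KO lay below every array labelled WT, though only 0.02 separated the closest arrays. The difference was -0.075 ± 0.032 (SE), a fold of 0.949 with an interval of 0.905 to 0.995. It missed the threshold in the fit across probe sets (limma adjusted p = 0.0879), while the two-sided exact permutation p of the single gene, not adjusted, was 0.00216. The pooled SD of Acta1 was 0.026, against a median of 0.105 over the tested probe sets, and limma draws such small spreads towards those of other probe sets. With each array centred on its median the difference was -0.024 (adjusted p = 0.655), so that its size depends on the scaling.

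Acta1 also lay near the top of what the arrays report. It stood 0.14 to 0.40 below the brightest row of its array, and it ranked between 2 and 25 among the 35556 rows. Array signal levels off towards its ceiling, and the part of this in the Acta1 difference was not tested. Among 37 probe sets with 1 symbol and a mean level of 13 or more, the median absolute difference was 0.045, against 0.112 over all tested probe sets. Of these bright probe sets 26 were lower and 11 higher on the arrays labelled KO whatever their p. Of the 37, 10 passed the threshold, which 31.9% of all tested probe sets passed. The lean was not that of all bright rows. Of the 114 rows with a mean of 13 or more, whatever their symbols, 46 were lower and 68 higher, with a median of 0.017. Actb had the highest difference of the 37, and 9 of them, Acta1 included, lay at or below the Acta1 value. Actc1 and Actb were among the 37 as well, while Acta2 and Actg2 were dimmer. No detection or saturation calls were used.

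**Figure D2:**
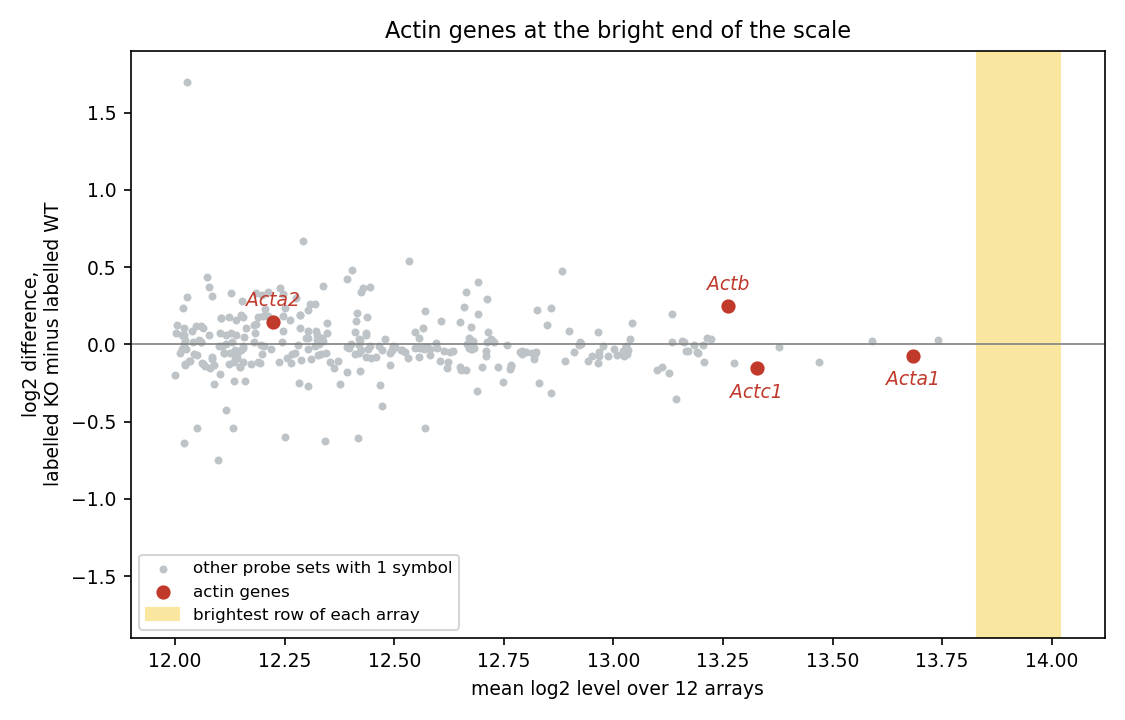
Log2 difference, labelled KO minus labelled WT (vertical axis), against the mean log2 level over the 12 arrays (horizontal axis), for the 314 probe sets with 1 symbol and a mean of 12 or more; red points are actin genes and the yellow band spans the brightest row of each array, 13.83 to 14.02. Acta1 lies next to the band at a difference of -0.075, and Actb at 0.245 has the highest difference among those of these probe sets with a mean of 13 or more.

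Actc1 encodes cardiac actin, which developing skeletal muscle shares with the heart. Its log2 levels were 13.37, 13.25, 13.24, 13.21, 13.19 and 13.23 on the arrays labelled KO1 to KO6, against 13.51, 13.40, 13.46, 13.17, 13.51 and 13.38 on the arrays labelled WT1 to WT6. On 5 arrays labelled WT it lay above all arrays labelled KO, and on the array labelled WT4 below all of them. The difference of -0.157 ± 0.058 (SE, fold 0.897, interval 0.823 to 0.977) just missed the threshold (limma adjusted p = 0.0518), with a two-sided exact permutation p of 0.0346 that is not adjusted. Without the array labelled WT4 it was -0.204 and passed (adjusted p = 0.00389), and without KO1, the highest array labelled KO, it was -0.181 and passed (adjusted p = 0.0330). Centring on the median gave -0.106 (adjusted p = 0.234).

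Other sarcomere genes of fetal and slow muscle stood lower more often than higher. Of the 10 listed, 6 were lower and 1 higher on the arrays labelled KO, with a median difference of -0.34. Of all 19938 genes 11.8% were lower and 20.1% higher, with a median of -0.01. Without dim probe sets, 1792 of 10895 tested probe sets were lower and 3664 higher. Myh3, the embryonic myosin heavy chain, differed by -1.41 ± 0.14 and Tnni1, the slow troponin I, by -0.66 ± 0.07 (SE). Myl3, a slow and ventricular light chain, went the other way at 0.60 ± 0.18 (SE, limma adjusted p = 0.0217). With centring, 4 of the 10 were lower. In the adult fast list 2 of 9 genes were higher and 4 lower, and only 1 was lower with centring. Its largest differences were those of the myosin Myh4 at 1.70 ± 0.27, the actin crosslinker Actn3 at 0.54 ± 0.07 and Myh2 at -0.45 ± 0.12 (SE). Heart markers were checked because Actc1 is a heart gene too. The 7 markers averaged 6.15 to 6.38 on the arrays labelled KO and 6.41 to 6.56 on the arrays labelled WT, with 3 lower (Nppa at -0.69, Nppb at -0.56 and Myl7 at -0.21, the last not past the threshold with centring) and 1 higher (Tnni3 at 0.21). Their part in the Actc1 difference was not tested.

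Within an array, Actc1 minus Acta1 was -0.30, -0.41, -0.41, -0.43, -0.41 and -0.42 on the arrays labelled KO1 to KO6, against -0.20, -0.34, -0.23, -0.57, -0.24 and -0.31 on the arrays labelled WT1 to WT6. The groups overlapped, with the lowest value on the array labelled WT4 and the highest on WT1. The group difference of -0.082 was not past the threshold (two-sided exact permutation p = 0.186, 0.186 after Benjamini-Hochberg over 2 such comparisons). Without the array labelled WT4 it was -0.133, with an adjusted exact p of 0.0173, and after quantile normalization it was -0.046 (adjusted exact p = 0.496). With all 12 arrays, unequal change of both sarcomeric genes was not detectable. Among the arrays labelled KO the levels of both genes went together by rank (Spearman's rank correlation 0.99, exact permutation p = 0.00556, 0.0222 adjusted over 4 relations), but not by Pearson's r (0.75, exact permutation p = 0.161, adjusted 0.316). Without the 2 arrays farthest from the median, KO1 and KO5, r was 0.96, but on the arrays left Acta1 ran only from 13.64 to 13.66. Among the arrays labelled WT r was -0.21 and Spearman's rank correlation was 0.18 (exact permutation p = 0.794 and 0.744, both unchanged by the adjustment), and r was 0.44 without WT1 and WT4. The Acta1 levels behind these values span 0.07 among the arrays labelled KO.

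Acta2 encodes the smooth muscle actin of vessel walls, which young skeletal muscle also makes. Its log2 levels were 12.31, 12.26, 12.32, 12.33, 12.20 and 12.34 on the arrays labelled KO1 to KO6, against 12.18, 12.14, 12.44, 12.03, 12.19 and 11.93 on the arrays labelled WT1 to WT6. The array labelled WT3 was the highest of all 12, and the other 5 labelled WT lay below every array labelled KO. The difference was 0.142 ± 0.070 (SE, fold 1.10, interval 0.995 to 1.22) and missed the threshold (limma adjusted p = 0.136, two-sided exact permutation p = 0.0844). Without the array labelled WT3, which was also the labelled WT array with the most Cfl2 signal at 7.71, it was 0.199 and passed (adjusted p = 0.0125). The arrays labelled KO again lay closer together, with an SD of 0.054 against 0.173.

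Actg2 encodes the smooth muscle actin of the gut. Its log2 levels were 7.72, 7.53, 7.76, 7.63, 7.63 and 7.81 on the arrays labelled KO1 to KO6, against 7.64, 8.01, 7.86, 7.56, 7.58 and 7.48 on the arrays labelled WT1 to WT6. The groups overlapped, and both the highest and the lowest array were labelled WT. The difference was -0.008 ± 0.085 (SE, limma adjusted p = 0.950, two-sided exact permutation p = 0.950), with a fold interval of 0.876 to 1.13, and its sign turned with centring (0.043). Within an array, Acta2 minus Actg2 averaged 4.61 ± 0.08 on the arrays labelled KO and 4.46 ± 0.17 on the arrays labelled WT (SD, n = 6 each), a difference of 0.150 with a two-sided exact permutation p of 0.0606 (0.121 over the 2 comparisons). After quantile normalization it was 0.187 with an adjusted exact p of 0.0346, and without the array labelled WT5 0.179 (adjusted exact p = 0.0476), but without the array labelled WT2, the lowest at 4.13, it was 0.083 (adjusted exact p = 0.197). Pearson's r of Acta2 with Actg2 was 0.61 among the arrays labelled KO and 0.58 among those labelled WT (exact permutation p = 0.206 and 0.237, both 0.316 adjusted), and Spearman's rank correlation was 0.67 among the arrays labelled KO and 0.60 among those labelled WT (exact permutation p = 0.156 and 0.242, adjusted 0.312 and 0.323). Without the 2 farthest arrays r was 0.24 among the arrays labelled KO and 0.15 among those labelled WT.

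Smooth muscle markers were read beside Acta2 and Actg2. Of the 8, 3 were lower in labelled KO and 1 was higher, with a median of -0.12. Over all 19938 genes, 11.8% were lower and 20.1% higher. Cnn1 and Myl9, which encode calponin and a regulatory light chain, differed by -0.95 ± 0.20 and -0.74 ± 0.09, while Smtn, a filament-associated protein, differed by 0.48 ± 0.07 (SE). The defining marker Myh11, the smooth muscle myosin, was at 8.67 ± 0.22 on the arrays labelled KO and 8.82 ± 0.23 on the arrays labelled WT (SD, n = 6 each, limma adjusted p = 0.336). Averaged over the list, levels were 8.49 to 8.76 in labelled KO and 8.73 to 8.91 in labelled WT. Of 8 pericyte markers, 3 were higher and 1 lower (median 0.04), against those same shares over all genes. The lower one, Cspg4, had the largest difference at -0.48 ± 0.11, while Kcnj8 and Rgs5 were higher at 0.28 ± 0.05 and 0.27 ± 0.06 (SE). These cells carry Acta2 as well, and their part in its level was not tested.

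**Figure D3:**
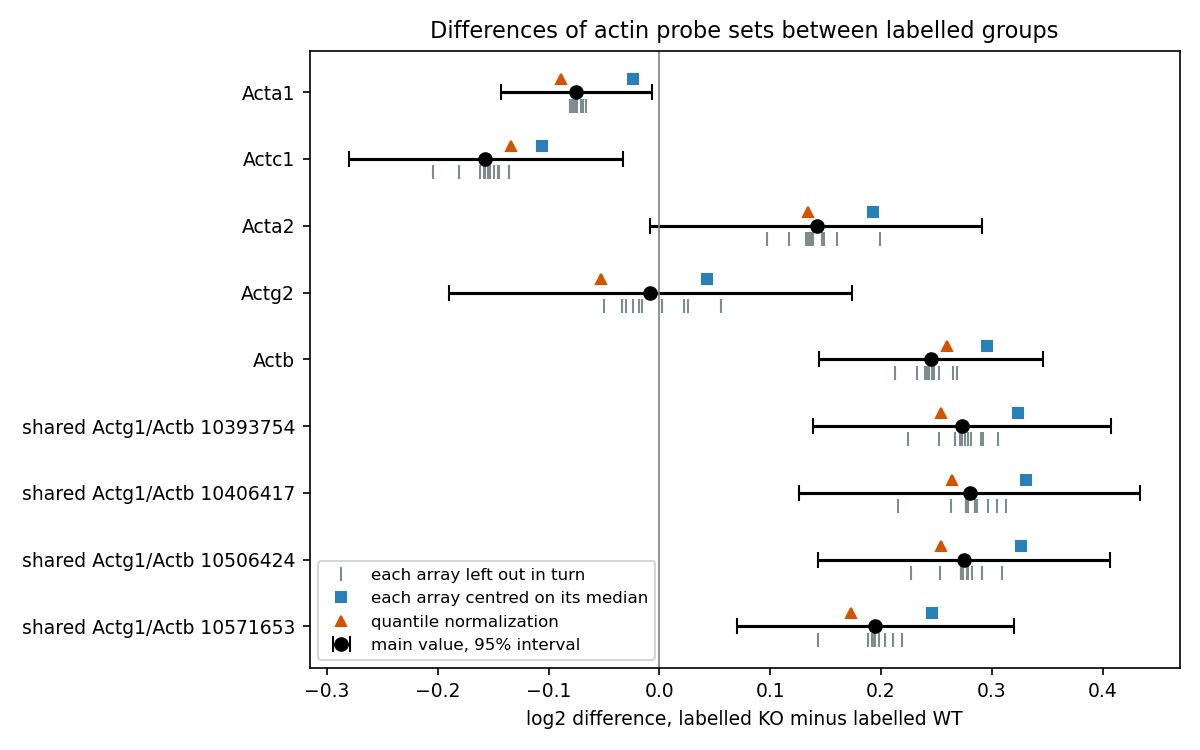
Log2 difference, labelled KO minus labelled WT (horizontal axis), of 5 actin genes and the 4 probe sets shared by Actg1 and Actb; black points and bars give the value and its 95% interval, ticks the values with each array left out, squares those after centring each array on its median and triangles those after quantile normalization. Actb and the shared probe sets stay above 0 in all of these, with Actb between 0.213 and 0.296, and Actg2 changes sign.

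Genes whose proteins work with cytoplasmic actin were more often higher than lower. Of the 13 listed, 2 were lower in labelled KO and 7 were higher, with a median of 0.25, and with centring 10 were higher and 1 lower. Over all 19938 genes, 20.1% were higher and 11.8% lower. Without dim probe sets, 3664 of 10895 tested probe sets were higher and 1792 lower. With centring, 5469 of all 21789 tested probe sets were higher and 1557 lower. Tmsb10 and Tmsb4x, thymosins that hold actin monomers, differed by 0.77 ± 0.11 and 0.62 ± 0.09, and the non-muscle tropomyosin Tpm4 by 0.63 ± 0.10 (SE). The 2 lower genes were Vcl, the adhesion protein vinculin, at -0.30 ± 0.06, and Myh10, a non-muscle myosin heavy chain, at -0.25 ± 0.08 (SE), which did not pass with centring. Endothelial, macrophage, fibroblast and adipocyte markers were mostly higher, unlike the smooth muscle and heart lists given above. Of the 8 pericyte markers 3 were higher. Of 6 endothelial markers 4 were higher (Kdr at 0.40 leading) and the others did not pass, with a median of 0.35. Of 6 macrophage markers 5 were higher (Adgre1 at 0.88 leading) and 1 did not pass, with a median of 0.36. Of 6 fibroblast markers 5 were higher (Lum at 0.60 leading) and 1, Pdgfra, was lower at -0.29 (not past the threshold with centring), with a median of 0.27. Averaged over each list, endothelial markers were at 10.53 to 10.61 in labelled KO and 9.92 to 10.42 in labelled WT, macrophage markers at 8.56 to 8.74 in labelled KO and 8.03 to 8.50 in labelled WT, and fibroblast markers at 11.52 to 11.67 in labelled KO and 11.26 to 11.47 in labelled WT. None of these ranges overlapped between the labelled groups. Of all single probe sets 15.4% did not overlap, and no such share was computed for averages over lists. Of 5 measured adipocyte markers 4 were higher, with a median of 1.72, and their average was 7.07 to 9.40 in labelled KO and 6.94 to 7.98 in labelled WT, ranges that overlapped. Actb is made in all of these cells, and their part in its difference was not tested.

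**Figure D4:**
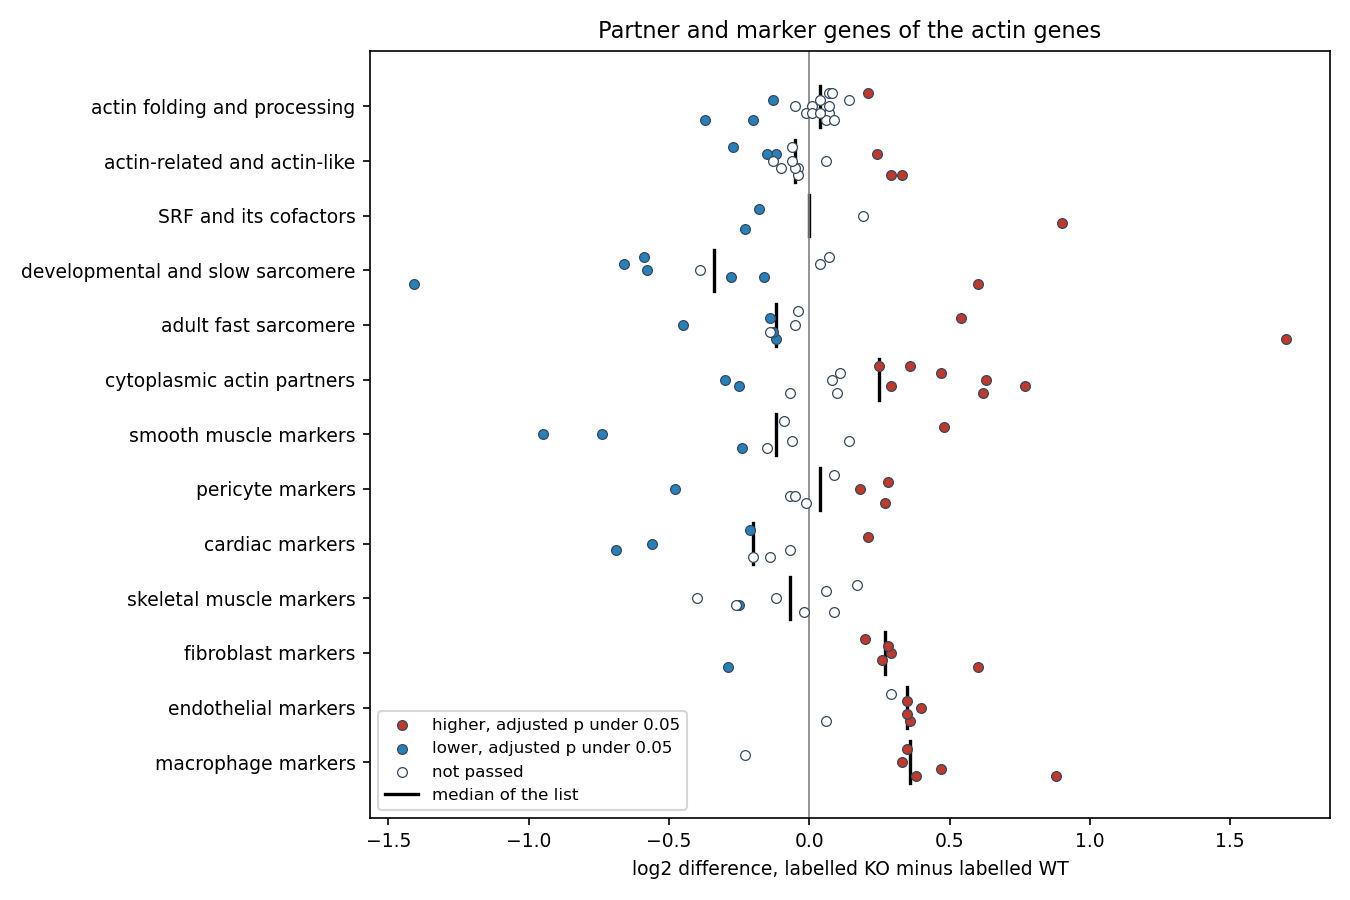
Log2 difference, labelled KO minus labelled WT (horizontal axis), of the genes of 13 lists; each point is a gene, filled red or blue where it was higher or lower past the threshold and white where it did not pass, and black bars mark list medians. The cytoplasmic actin partners and the fibroblast, endothelial and macrophage markers have medians of 0.25 to 0.36, and the developmental and slow sarcomere list a median of -0.34. The adipocyte markers, with a median of 1.72, are not drawn.

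Of SRF and its 3 cofactors, 1 was higher, 2 were lower and 1 did not pass (median 0.00). Of all probe sets 31.9% passed, and 5456 of 10895 passed without dim probe sets. Srf itself was at 10.12 ± 0.12 on the arrays labelled KO and 10.34 ± 0.08 on the arrays labelled WT (SD, n = 6 each), a difference of -0.23 ± 0.06 (SE, limma adjusted p = 0.00908). Mrtfa, the cofactor that senses actin monomers, was 1.86-fold higher (0.90 ± 0.11 SE, limma adjusted p = 6.58e-05). Mrtfb, its paralog, differed by 0.19 and just missed the threshold (adjusted p = 0.0514), which it passed with centring (0.24, adjusted p = 0.0246). Myocd, the cofactor of smooth and heart muscle, differed by -0.18 ± 0.06 (SE, limma adjusted p = 0.0221), but by -0.13 with centring (adjusted p = 0.0971). A link of these factors to the actin levels was not tested.

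Of 17 measured genes for the chaperonin, its partner prefoldin and actin-modifying enzymes, 1 was higher and 3 lower, with a median of 0.04, against 20.1% higher and 11.8% lower over all genes. Pdcl3, a helper of the chaperonin, differed by -0.37 ± 0.05, the chaperonin subunit Tcp1 by -0.20 ± 0.04 and the prefoldin subunit Pfdn1 by 0.21 ± 0.04 (SE). Setd3, which methylates actin, differed by 0.04 ± 0.05 (SE, limma adjusted p = 0.590). Among 14 measured actin-related and actin-like genes, 3 were higher and 3 lower (median -0.05), and 1 was lower with centring. Actl6a, an actin-like subunit of chromatin remodelling complexes, differed by 0.33 ± 0.07, Actr1a, the actin-like filament of dynactin, by 0.29 ± 0.05 and the testis gene Actl9 by -0.27 ± 0.06 (SE). Actbl2, a further actin-like gene, did not pass, at 5.43 ± 0.04 on the arrays labelled KO and 5.47 ± 0.06 on the arrays labelled WT (SD, n = 6 each).

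Among mice of 1 labelled group, the actin genes were also set against each other. Deviations from the labelled group means over the 12 arrays correlated by 0.63 for Acta2 with Actb, 0.58 for Acta2 with Actg2 and 0.48 for Actc1 with Acta2, and by -0.24 to 0.23 for the other pairs. These are descriptions over arrays that share a group mean and carry no test. The array labelled WT6 lay below its group mean for all 5 genes, by 0.22 for Acta2, 0.21 for Actg2, 0.16 for Actb and 0.03 for Acta1 and Actc1. The array labelled WT3 lay above it for Acta2 (0.29), Actg2 (0.17), Actb (0.12) and Actc1 (0.05).

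By the same deviations, the genes most like each actin were named over the 12 arrays. Those most like Actb were the histone gene H2ac15, Shkbp1 and Rrm1, a subunit of ribonucleotide reductase (r = 0.964, 0.963 and 0.963). The Actb deviations ran from -0.03 to 0.03 on the arrays labelled KO and from -0.16 to 0.12 on those labelled WT. These values of r therefore rest mostly on the arrays labelled WT. Acta1 was matched best by Arhgap35, Ddx6 and Wdfy3 (r = 0.921, 0.909 and 0.891). Actc1 was matched best by Atp6v1g1, a proton pump subunit, Mdga1 and Pramel23 (0.929, 0.928 and 0.910), and Acta2 by Cab39l, Niban1 and Gpx8 (0.943, 0.930 and 0.918). Rundc3b, Pfkp, a phosphofructokinase, and Zfp398 were most like Actg2 (0.920, 0.901 and 0.893). Each is the top of 19938 genes ranked over few arrays, and no shared function is read from it. Between the labelled groups, 9 of these 15 genes passed the threshold, which 31.9% of all probe sets did, among them all 3 matched to Actb (0.45, 0.47 and 0.69) and all 3 matched to Acta2 (0.48, 0.38 and 0.31).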

How the data were processed

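Total RNA of quadriceps muscle was hybridized by the authors to Affymetrix Mouse Gene ST arrays, and gene level values were normalized with Affymetrix Power Tools. Its version, summary method and genome build were not given in the sources used here. From their range, the deposited values were read as log2 levels. Of 35556 rows, 21789 had 1 symbol, 1621 several and 12146 were not listed in the platform annotation. Symbols were updated by gene identifier from RefSeq (GRCm38.p6, 21698 probe sets).

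Differences were fitted with limma 3.58.1 in R 4.3.3 (lmFit, eBayes, no covariates) over all probe sets with 1 symbol, with Benjamini-Hochberg adjustment. Single values were tested by exact permutation over arrays. The fit was tested on simulated data. The methods' t-test, a replicate block, other scalings, filters and variance settings, and each array left out were alternatives. The fit of all rows for the shared probe sets and the permutation test of single genes were added after values were seen. The members and the 14 gene lists were chosen with earlier results of these data known. Named are the actin genes, Cfl2, the 3 genes most like each actin by deviations, up to 3 called members of each list, and all members of a list of up to 4 genes. Myog, Ckm, Myh11, Setd3, Actbl2, Vcl, Myh10 and Myl7 were named after their values were seen. Probe sequences were not used here, so how well they separate the very similar actin transcripts was not examined. The arrays' number limits the precision, and p-values set a group difference against the spread between these animals.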

Additional observations from a re-analysis of the deposited data

Results flagged for a closer look

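Of 24 sets of 6 arrays, 4 had a highest or lowest array that stood apart from the rest, where chance gives about 1 in 20 for a single set. The sets are not independent. They include the shared probe sets, which are close to repeats, and differences of genes that also count alone. The number flagged therefore cannot be read against that rate. Actc1 was highest on the array labelled KO1, at 13.37, with a gap of 0.667 of the range of its group. Actc1 minus Acta1 was highest on the same array, at -0.30, with a gap of 0.846 of the range. The shared probe set 10571653 was lowest on the array labelled WT6, at 12.15, with a gap of 0.658. Acta2 minus Actg2 was lowest on the array labelled WT2, at 4.13, with a gap of 0.667. No cause was tested for any of these arrays.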

How the results depend on the processing

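Actb stayed higher and past the threshold in all 23 alternatives, Actg2 did not pass it in any of 23, and Cfl2 was past it in all 13. The count of called probe sets stayed within 1.5 times of 6952, between 5456 without dim probe sets and 9003 with the unadjusted methods' t-test. The totals behind these counts differ. Without dim probe sets 10895 were tested, against 21789 in the main fit and with the t-test. The lowest count was therefore a larger share of its probe sets than the 31.9% called in the main fit. Acta1 (-0.075) passed the threshold with trend and robust variance (adjusted p = 0.0171), the methods' t-test after adjustment (0.00455) and unadjusted (p = 0.000481), the exact permutation test, and array weights (-0.083, adjusted p = 0.0404). Actc1 (-0.157) passed without dim probe sets (adjusted p = 0.0399), with trend and robust variance (0.0279), the unadjusted methods' t-test (p = 0.0223), the exact permutation test and array weights (-0.210, adjusted p = 0.00412). With 1 array left out, Acta1 ranged from -0.081 to -0.066 and did not pass, Actc1 from -0.204 to -0.136, Acta2 from 0.097 to 0.199, Actc1 minus Acta1 from -0.133 to -0.059 and Acta2 minus Actg2 from 0.083 to 0.179, which was 0.187 after quantile normalization. The causes were not tested. A comparison of Actb with Actg1 was not run, since Actg1 had no probe set of its own, nor was another probe set of a gene, since each had 1. For that reason the mean over a gene's probe sets, 1 of the 23, could alter only the adjusted p.

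The methods describe littermate pairs, but the labels do not tie the numbers to litters. Deviations of same-numbered arrays correlated by -0.223 to 0.168, so the numbers were not treated as pairs, which does not show that they carry none. The replicate block gave 6074 called probe sets, kept Actb past the threshold (0.245, adjusted p = 0.00710) and changed no call of the 5 actin genes. Acta1, Actc1 and Actb lie near the top of the scale, and what this does to their differences was not tested.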
